A study of Homo sapiens with 9 samples.

Results

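The mitochondrial ribosome, or mitoribosome, is the separate ribosome that translates the few proteins encoded by mitochondrial DNA, all of them parts of the respiratory chain and ATP synthase. Its proteins are encoded in the nucleus, made in the cytosol and imported, whereas its ribosomal RNA comes from the mitochondrial genome. Some of its proteins have bacterial counterparts and others are specific to mitochondria. The 76 genes described here are every gene row whose symbol is MRPL or MRPS followed by a number and at most 1 letter A, B or C, out of 23621 gene rows: 47 with large-subunit (MRPL) names and 29 with small-subunit (MRPS) names. The choice used names only, no measured value. All 76 passed the filter of a mean of at least 1 FPKM (sequenced fragments scaled to transcript length and library size) over the libraries, which 12301 genes passed.

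All libraries came from MOLT4, a human T-cell acute lymphoblastic leukaemia (T-ALL) line cultured in RPMI with 10% FBS and 1% Pen/Strep, sampled after 6 h. There were 3 libraries titled MI-389 (written MI_3_89 in the titles), 3 titled sunitinib, a kinase inhibitor, and 3 from cells given 0.1% DMSO. The labels conflict on the compounds: the source field of the libraries titled MI-389 names sunitinib at 1 µM, and that of the libraries titled sunitinib names MI-389 at 0.1 µM. The titles, the barcode list and the column names go together, so libraries are called here by their titles; should the source field hold instead, the compounds change places throughout. The doses of the compounds were not matched. The title of the series concerns GSPT1, a translation termination factor of the cytosol, as an unintended target of phthalimide degraders. Nothing in the labels says whether replicates came from separate cultures, and the spread on which the p-values rest may therefore be technical. Polyadenylated RNA was measured, with ERCC spike-in RNAs added by cell number, from a kit that does not mark strand, and no protein was measured.

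The deposited files give FPKM and no counts, so absolute depth is unknown; the spacing of near-floor values put the depth of the libraries titled MI-389 at 1.38 times that of the DMSO libraries (81 genes) and of those titled sunitinib at 1.32 times (101 genes). The lowest value of any of the 76 genes in any library was 18.1 FPKM, far above the smallest values in the libraries, near 0.1 FPKM. All 18 T-lineage markers examined had a mean of at least 1 FPKM, as did 3 of 15 markers of other cells (CD79A, KRT8 and PECAM1), whose summed level over all 15 stayed between 27.4 and 33.8 FPKM in every library. The summed level of the 76 genes was 10391, 9989 and 10263 FPKM in the libraries titled MI-389, 10714, 10787 and 10615 FPKM in those titled sunitinib, and 10816, 12243 and 12648 FPKM with DMSO. DMSO replicate 1 thus lay near the treated libraries and below the other DMSO libraries. In bulk RNA of this kind, fewer cells of a type and less RNA per cell cannot be told apart.

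Promoters of 6 genes are printed, 3 of genes that fell (MRPL51, MRPL20, MRPS6) and 3 of genes that rose (MRPS30, MRPL38, MRPL1) in the libraries titled MI-389. They were chosen after their values and letters were seen: MRPL51, MRPL20, MRPS30 and MRPL38 because they carry letters that recur among these promoters, MRPS6 and MRPL1 because they changed strongly and have no match. Each runs from 250 bases before to 50 bases after a transcription start (RefSeq, build GRCh38.p14), 5′ to 3′ on the gene's strand. Capitals mark CCGGAAG, the core letters of an ETS-family site, and AAGATGGC, the core letters of a YY1 site, on either strand.
MRPL51 (chr12:6493213-6493512, minus strand): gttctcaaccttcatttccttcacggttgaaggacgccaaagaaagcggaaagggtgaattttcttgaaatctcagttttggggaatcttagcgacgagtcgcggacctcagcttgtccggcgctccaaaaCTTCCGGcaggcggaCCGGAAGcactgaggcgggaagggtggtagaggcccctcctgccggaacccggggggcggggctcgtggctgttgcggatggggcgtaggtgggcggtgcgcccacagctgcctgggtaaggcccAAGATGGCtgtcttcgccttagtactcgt
MRPL20 (chr1:1407244-1407543, minus strand): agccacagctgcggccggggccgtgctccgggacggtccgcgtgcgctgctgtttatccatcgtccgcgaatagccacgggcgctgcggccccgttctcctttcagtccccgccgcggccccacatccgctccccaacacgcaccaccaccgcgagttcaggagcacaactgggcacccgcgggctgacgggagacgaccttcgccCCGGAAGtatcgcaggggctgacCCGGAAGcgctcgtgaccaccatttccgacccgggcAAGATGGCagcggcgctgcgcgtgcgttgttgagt
MRPS6 (chr21:34073328-34073627, plus strand): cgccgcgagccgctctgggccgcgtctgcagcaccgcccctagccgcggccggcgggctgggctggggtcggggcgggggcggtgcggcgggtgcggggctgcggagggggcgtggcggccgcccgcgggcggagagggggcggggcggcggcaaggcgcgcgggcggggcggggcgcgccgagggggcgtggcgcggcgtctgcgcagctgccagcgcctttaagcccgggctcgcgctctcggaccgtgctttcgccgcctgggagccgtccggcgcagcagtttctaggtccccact
MRPS30 (chr5:44808697-44808996, plus strand): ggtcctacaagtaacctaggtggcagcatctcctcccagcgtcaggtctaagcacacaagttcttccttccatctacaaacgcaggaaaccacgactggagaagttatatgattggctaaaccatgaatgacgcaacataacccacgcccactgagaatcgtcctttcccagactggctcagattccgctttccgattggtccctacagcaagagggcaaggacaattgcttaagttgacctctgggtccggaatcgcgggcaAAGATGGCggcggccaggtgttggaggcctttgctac
MRPL38 (chr17:75904835-75905134, minus strand): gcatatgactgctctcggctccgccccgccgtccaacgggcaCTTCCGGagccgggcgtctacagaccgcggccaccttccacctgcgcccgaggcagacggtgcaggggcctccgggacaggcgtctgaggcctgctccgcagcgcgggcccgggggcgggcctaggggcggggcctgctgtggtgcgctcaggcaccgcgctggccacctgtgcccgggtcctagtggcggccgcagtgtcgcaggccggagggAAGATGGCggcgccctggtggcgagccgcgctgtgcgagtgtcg
MRPL1 (chr4:77862580-77862879, plus strand): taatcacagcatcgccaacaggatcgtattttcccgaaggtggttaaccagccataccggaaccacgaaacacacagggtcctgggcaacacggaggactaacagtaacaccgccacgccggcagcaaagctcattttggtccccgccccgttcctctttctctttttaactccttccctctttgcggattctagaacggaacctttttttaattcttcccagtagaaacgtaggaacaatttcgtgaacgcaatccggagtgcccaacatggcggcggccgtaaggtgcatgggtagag

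Of the 76 genes, 68 matched an entry in the promoter table, with 84 promoters between them. The ETS letters stood in 38.1% of these promoters, against 10.3% of all 35116 promoters in the table, and the YY1 letters in 27.4%, against 2.89%. Counted by gene, 42.6% of the 68 had the ETS letters and 30.9% the YY1 letters, against 24.0% and 6.89% of the 9475 tested genes with an entry. By call in the libraries titled MI-389, the ETS letters stood in 4 of 10 genes that rose, 13 of 31 that fell and 12 of 27 that did not pass, and the YY1 letters in 3, 10 and 8 of them. The median log2 difference against DMSO was −0.16 for genes with the ETS letters and −0.13 without them, and −0.006 for genes with the YY1 letters and −0.15 without them; neither difference was tested. The only overlap searched was the ETS letters running into the YY1 letters through their shared AAG, on either strand. It stood in none of these promoters, against 0.0142% of all promoters. Other overlaps were not searched. For the motif of the regulator NRF1, searched with 1 open position on both strands, the share of genes was 11.8%, against 14.6% of tested genes. A match is a run of letters and not a measured site.

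The levels of the 76 genes spanned a wide range. MRPL51, a large-subunit protein specific to mitochondria, had the highest FPKM of all of them in each of the 9 libraries and made up 4.07% ± 0.0478 of their sum in the libraries titled MI-389, 6.51% ± 0.0516 in those titled sunitinib and 6.03% ± 0.317 with DMSO (SD, n = 3 each). MRPL12, MRPL20 and MRPS21 came next by mean level over all libraries. At the other end MRPL19, with means of 18.6 FPKM in the libraries titled MI-389, 22.3 FPKM in those titled sunitinib and 25.7 FPKM with DMSO, was the lowest, followed by MRPL22, MRPS25 and MRPS14. FPKM is a level per length of transcript, but the annotation behind it is not given and some genes overlap others or have pseudogenes. Ranks between genes are therefore approximate.

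In the libraries titled MI-389, set against DMSO, the mitoribosome genes moved in both directions, with falls outnumbering rises. MRPL34, MRPL51, MRPS6 and MRPL27 fell the most, to between 0.54 and 0.61 of their DMSO means, while MRPS30 and MRPL1 rose to 1.505 and 1.478 times theirs. At an adjusted p under 0.05, 10 of 76 genes rose, 36 fell and 30 did not pass. Over all tested genes 56.7% passed, 28.5% upward and 28.3% downward, so 13.2% and 47.4% of the mitoribosome genes stand against a nearly even split. The median log2 difference of the 76 genes was −0.15, against −0.002 over all tested genes, and their differences ran from −0.89 to 0.58. Every library titled MI-389 lay outside the DMSO range for 46 genes, above it for 12 and below it for 34, where 60.2% of all tested genes did so, 30.5% above and 29.7% below. The split depended on scaling: with each library centred on its median 9 rose and 50 fell, with quantile normalization 22 and 35, and with cyclic loess 26 and 30. The background shifted as well: 26.2% of all tested genes rose and 40.3% fell with median centring. With quantile normalization these shares were 30.2% and 35.7%, and with cyclic loess 33.3% and 32.4%.

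**Figure D1:**
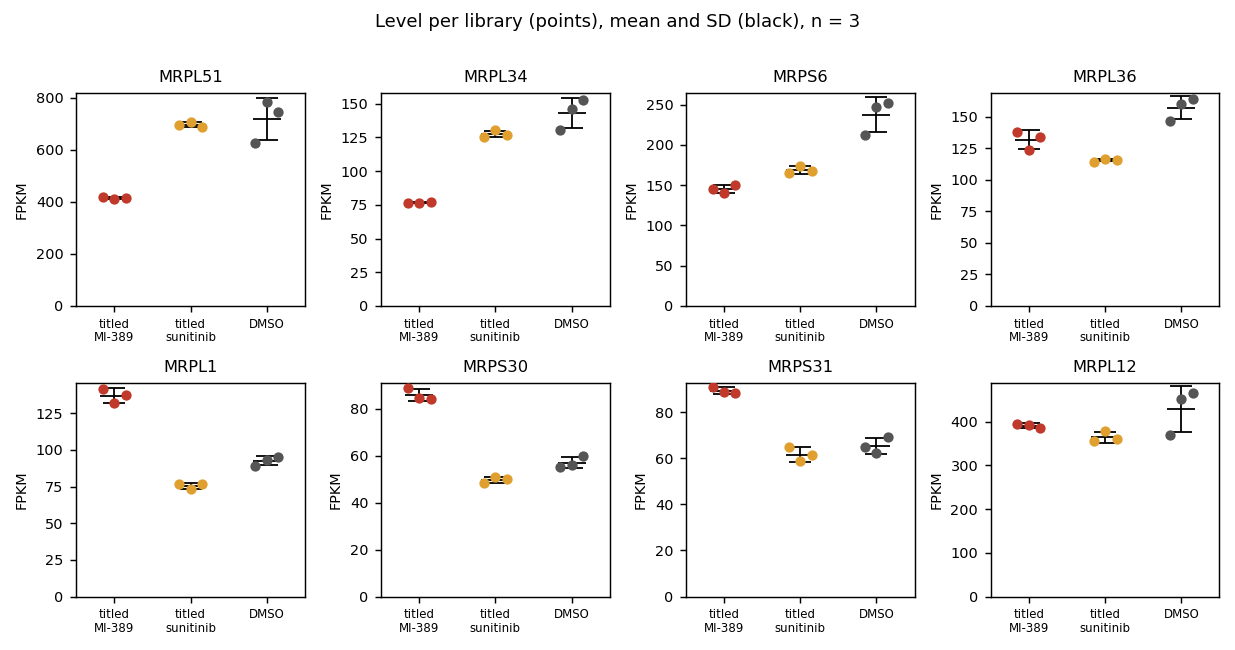
FPKM (vertical axis, from 0) of 8 mitoribosome genes in each library titled MI-389, titled sunitinib and given DMSO; points are libraries and black bars the mean and SD of 3. MRPL51 and MRPL34 are lower in the libraries titled MI-389 than in both other groups, MRPS6 is below DMSO with both titles, and MRPL1, MRPS30 and MRPS31 are high in the libraries titled MI-389.

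MRPL34, the counterpart of a small bacterial large-subunit protein, had 76.1, 76.6 and 76.8 FPKM in the libraries titled MI-389, against 131, 146 and 153 FPKM with DMSO. All 3 libraries titled MI-389 lay far below all 3 DMSO libraries, and the log2 difference was −0.89 ± 0.06 (SE), adjusted p = 2.8e-06. Its locus overlaps ABHD8, and without strand the reads of overlapping genes cannot be told apart. ABHD8 itself had a log2 difference of −0.02, which did not pass.

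MRPL51 had 420.5, 412 and 415 FPKM in the libraries titled MI-389, against 627, 782 and 747 FPKM with DMSO. The groups did not overlap, and the gene with the highest level in the set fell by 0.78 ± 0.08 (SE) on the log2 scale, adjusted p = 2.7e-05. MRPL27, whose bacterial counterpart reaches towards the peptidyl transferase centre where peptide bonds form, had 141, 129 and 129 FPKM in the libraries titled MI-389, against 191, 229.9 and 229 FPKM with DMSO. It fell by 0.70 ± 0.08 (SE) on the log2 scale, adjusted p = 4.8e-05, again with no overlap.

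Among other large-subunit genes that fell, MRPL18 belongs to the protein family that holds 5S rRNA in bacteria, MRPL17 to a family near the exit of the polypeptide tunnel, MRPL16 to a family that contacts the tRNA entering the ribosome and MRPL20 to one that acts early in bacterial large-subunit assembly. Their log2 differences were −0.54, −0.50, −0.48 and −0.45, each with an SE between 0.06 and 0.07 and adjusted p between 8.8e-05 and 0.00022. MRPL20 overlaps its antisense RNA MRPL20-AS1 and has a named pseudogene.

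Among small-subunit genes, MRPS6, the counterpart of bacterial S6, had 146, 141 and 149.8 FPKM in the libraries titled MI-389, against 213, 247 and 252 FPKM with DMSO. Its groups did not overlap, and it fell by 0.70 ± 0.07 (SE) on the log2 scale, adjusted p = 2.6e-05. It overlaps SLC5A3 and has 3 named pseudogenes. MRPS26, a mitochondria-specific small-subunit protein, fell by 0.59 ± 0.07 (SE), adjusted p = 8.7e-05, and MRPS21, the counterpart of bacterial S21, by 0.42 ± 0.07 (SE), adjusted p = 0.00044, both on the log2 scale.

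Among genes that rose, MRPS30 carries a small-subunit name, but structures of the mammalian mitoribosome place its protein in the large subunit. It had 88.8, 84.5 and 84.3 FPKM in the libraries titled MI-389, against 55.3, 56.2 and 59.7 FPKM with DMSO. All treated libraries lay above all DMSO libraries, with a log2 difference of 0.58 ± 0.05 (SE), adjusted p = 1.2e-05.

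MRPL1 is the counterpart of the bacterial L1 protein, which forms the mobile stalk beside the site where spent tRNA leaves. It had 142, 132 and 137 FPKM in the libraries titled MI-389, against 89.1, 93.4 and 95.4 FPKM with DMSO. These groups did not overlap either, and the log2 difference was 0.56 ± 0.05 (SE), adjusted p = 1.6e-05. A long non-coding RNA, LOC102724916, overlaps its locus.

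MRPS31, a mitochondria-specific small-subunit protein with 3 named pseudogenes, had 90.9, 88.7 and 88.3 FPKM in the libraries titled MI-389, against 64.96, 62.3 and 69.0 FPKM with DMSO. It rose by 0.44 ± 0.06 (SE), adjusted p = 0.00012, with no overlap. MRPL38, a mitochondria-specific large-subunit protein, rose by 0.31 ± 0.08 (SE), adjusted p = 0.0086. The remaining genes that rose were MRPS18B, MRPS18C, MRPS11, MRPL39, MRPS22 and MRPS9, by 0.17 to 0.37 on the log2 scale. The call of MRPS11, the counterpart of bacterial S11, was lost without DMSO replicate 1 (adjusted p = 0.053) and without MI-389 replicate 1 (0.094) or 3 (0.068). The call of MRPS9, the counterpart of bacterial S9, was lost with median centring (0.09, adjusted p = 0.11), with only the 6 libraries compared, and without DMSO replicate 1, sunitinib replicate 3 or MI-389 replicate 1 or 3 (adjusted p between 0.052 and 0.12).

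MRPS18A, MRPS18B and MRPS18C are 3 paralogs of bacterial S18, and each mitoribosome holds all 3 in different places, MRPS18A in the large subunit. Against DMSO the libraries titled MI-389 differed by 0.11 ± 0.07 (SE) for MRPS18A, which did not pass (adjusted p = 0.20), by 0.37 ± 0.07 for MRPS18B (adjusted p = 0.0016) and by 0.27 ± 0.07 for MRPS18C (adjusted p = 0.0064). With quantile normalization or cyclic loess MRPS18A passed as well, upward (adjusted p = 0.0028 and 0.00067). MRPS18C overlaps ABRAXAS1 and has 6 named pseudogenes.

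The stalk that recruits translation factors is built on MRPL11 and MRPL10 and carries copies of MRPL12, which is also reported to bind the mitochondrial RNA polymerase. MRPL11 fell by 0.36 ± 0.08 (SE), adjusted p = 0.0035, and MRPL10 by 0.26 ± 0.08 (SE), adjusted p = 0.023. The MRPL10 call was lost without DMSO replicate 2 or 3 and without MI-389 replicate 2 or 3 (adjusted p between 0.058 and 0.082). MRPL12 had 395, 392.3 and 385 FPKM in the libraries titled MI-389, against 369, 452 and 465 FPKM with DMSO. Its groups overlapped through DMSO replicate 1, and its log2 difference of −0.13 ± 0.08 (SE) did not pass (adjusted p = 0.21). Its direction was not settled: without DMSO replicate 1 it passed downward (adjusted p = 0.00053), and with cyclic loess it passed upward (0.16, adjusted p = 0.0013). MRPS36, a small-subunit name whose protein is now assigned to a dehydrogenase complex outside the mitoribosome, had a log2 difference of −0.11 that did not pass (adjusted p = 0.14).

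**Figure D2:**
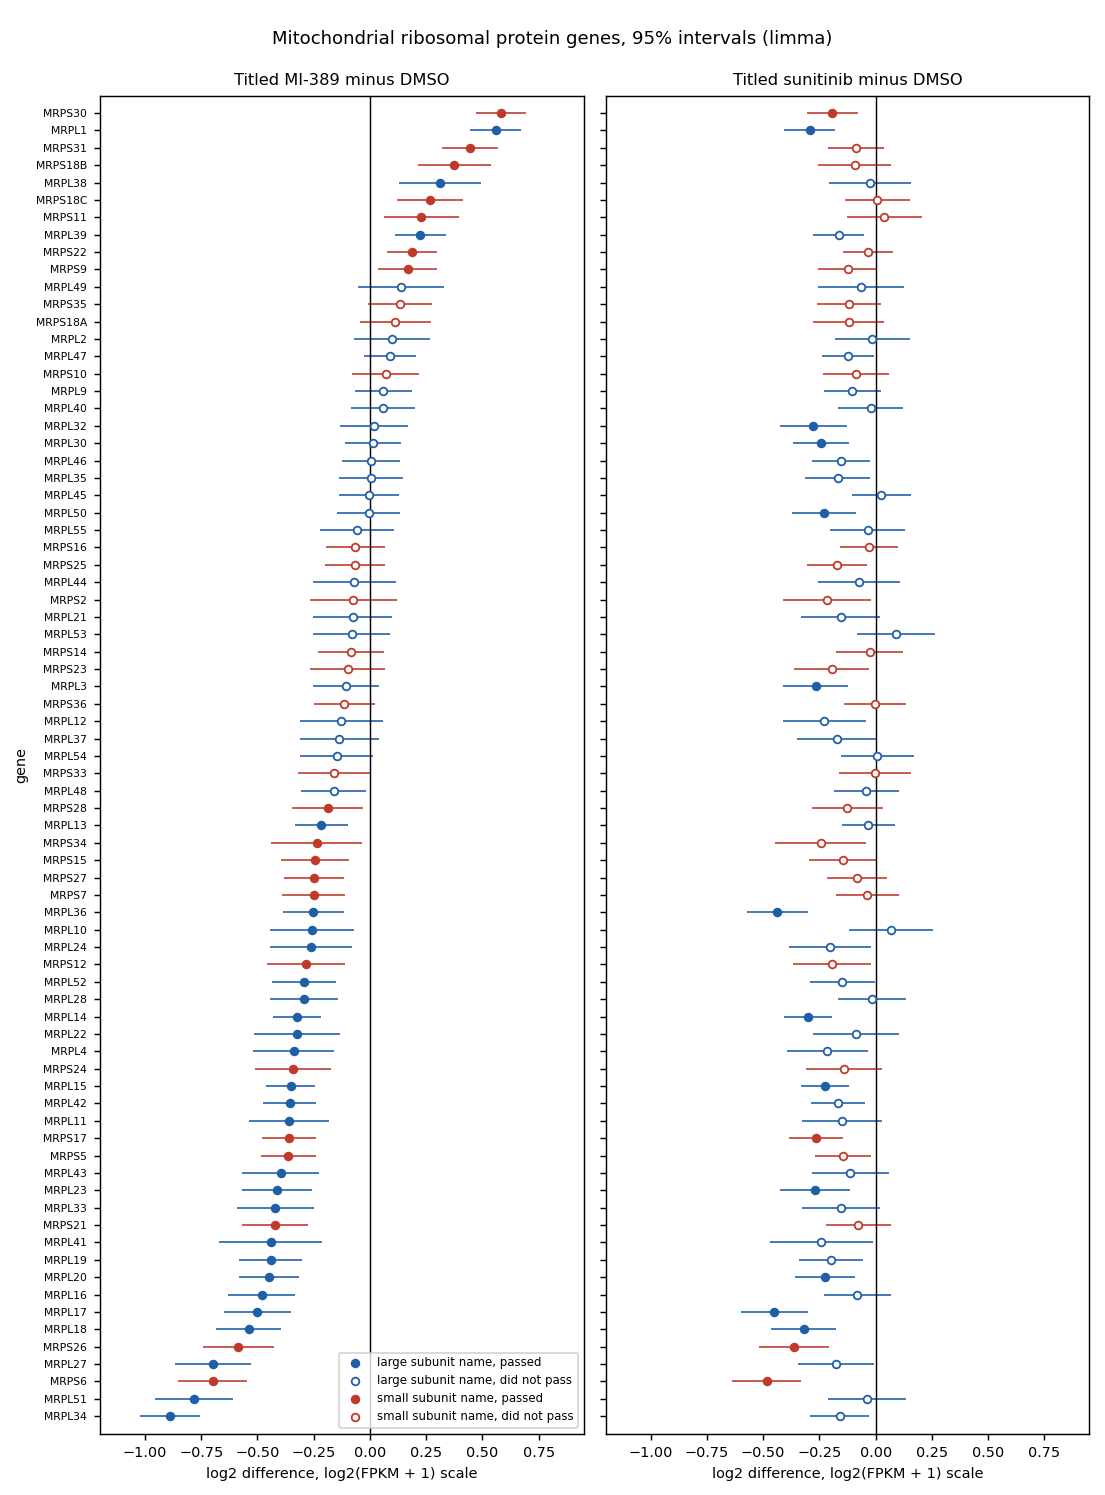
Log2 difference (horizontal axis, log2(FPKM + 1) scale) of each of the 76 genes, ordered by the left panel, for libraries titled MI-389 minus DMSO (left) and titled sunitinib minus DMSO (right); bars are 95% intervals, blue is a large-subunit name, red a small-subunit name, and filled points passed adjusted p under 0.05. The left panel runs from 0.58 for MRPS30 down to −0.89 for MRPL34, with 10 filled points above 0 and 36 below; the right panel shares the DMSO libraries and has 16 filled points, all below 0.

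By subunit name, 3 of 47 large-subunit genes rose and 24 fell in the libraries titled MI-389 (median log2 difference −0.22), and 7 of 29 small-subunit genes rose and 12 fell (−0.10). By origin, 4 of 46 genes with a bacterial homologue rose and 28 fell (median −0.26), whereas among 27 mitochondria-specific genes 5 rose and 8 fell (−0.08), beside 28.5% of all tested genes that rose and 28.3% that fell. The mitochondria-specific median turned positive with quantile normalization (0.040) and cyclic loess (0.089). The 3 genes in neither class are MRPS18A, MRPS30 and MRPS36. Of the other paralogs of bacterial S18, which both rose, MRPS18C was counted as a bacterial homologue and MRPS18B as mitochondria-specific. With cyclic loess the counts by origin were 12 up and 22 down of 46, and 12 up and 8 down of 27. The mitochondria-specific count of falls was 14 without DMSO replicate 1, and the count of rises among genes with a bacterial homologue was 2 without DMSO replicate 1, MI-389 replicate 1 or MI-389 replicate 3. The difference between the classes was not tested.

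Summed over genes, the large-subunit level divided by the small-subunit level was 1.93 ± 0.00655 in the libraries titled MI-389, 2.04 ± 0.00254 in those titled sunitinib and 2.06 ± 0.0164 with DMSO (SD, n = 3 each). The 3 libraries titled MI-389 ran from 1.92 to 1.94, and the other 6 libraries from 2.04 to 2.07, without overlap. Without MRPL51 the groups lay closer together, at 1.81 ± 0.00596 in the libraries titled MI-389, 1.85 ± 0.00382 in those titled sunitinib and 1.87 ± 0.00619 with DMSO. The order held when MRPS30 and MRPS18A were counted as large-subunit genes and MRPS36 was left out, with ratios of 2.14 ± 0.00774 in the libraries titled MI-389, 2.21 ± 0.00453 in those titled sunitinib and 2.22 ± 0.0131 with DMSO. DMSO replicate 1, whose sums were low, did not stand apart from the other DMSO libraries so far in this ratio: 2.04 against 2.07 and 2.05.

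**Figure D3:**
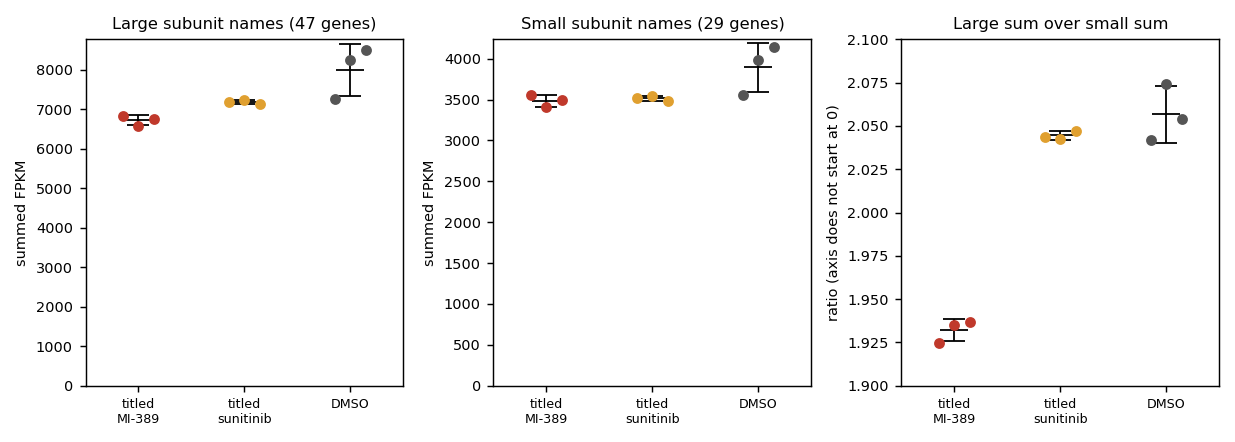
Summed FPKM of the 47 large-subunit genes (left) and 29 small-subunit genes (middle), and the ratio of these sums (right, axis not starting at 0), per library; points are libraries and black bars the mean and SD of 3. The ratio lies at 1.92 to 1.94 in the libraries titled MI-389 and at 2.04 to 2.07 in all others, while the sums of DMSO replicate 1 lie near those of the treated libraries.

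Transcript length and level moved with the result. Of the 38 genes whose transcript was shorter than 1458.5 bases (GENCODE 29), 1 rose and 25 fell in the libraries titled MI-389, with a median log2 difference of −0.26; of the 38 longer ones, 9 rose and 11 fell, with a median of −0.07. Across the 76 genes, which share libraries and are not independent, the Spearman correlation of the difference was 0.34 with length, −0.26 with GC content and −0.34 with mean level. Across all tested genes these were 0.19 and −0.23 over 11063 genes with a matched transcript and −0.21 over 12301. With cyclic loess, which removes trends with level, they were 0.18, −0.16 and −0.04 across the 76 genes. Of all tested genes of any length, 28.5% rose and 28.3% fell, and their shares by length were not counted. Length and GC content are those of 1 annotated transcript per gene, which need not be the form expressed. MRPL42, for example, was placed at 15582 bases. The part of length, GC content or level in the result was not tested further.

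**Figure D4:**
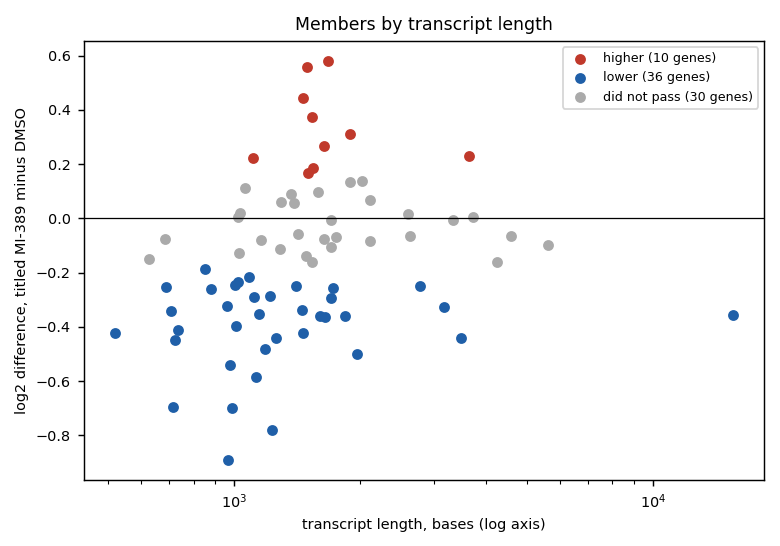
Transcript length (horizontal, log axis, bases) and log2 difference of the libraries titled MI-389 minus DMSO (vertical) for the 76 genes; red rose, blue fell, grey did not pass. Of the genes under 1458.5 bases 25 are blue and 1 is red; of the longer ones 11 are blue and 9 are red.

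Set against the same DMSO libraries, fewer genes passed in the libraries titled sunitinib, and none of them upward. MRPS6, MRPL17 and MRPL36 fell the most, to means of 169, 45.5 and 116 FPKM, against 237, 62.8 and 157 FPKM with DMSO. At an adjusted p under 0.05 no gene rose, 16 fell and 60 did not pass; limma found 0 upward and 35 downward at an unadjusted p under 0.05, beside 635 and 3584 of all 12301. Over all tested genes 19.3% passed, 2.37% upward and 16.9% downward, so the 21.1% of mitoribosome genes that fell lie near the background. The median was −0.15, against −0.10 over all tested genes. The libraries did not overlap for 28 genes, all lower, where 35.2% of all tested genes did not overlap, 5.89% higher and 29.3% lower. The count of falls rested on single libraries: it was 46 without DMSO replicate 1, 7 without sunitinib replicate 2 and 8 without sunitinib replicate 3. Scaling changed the split too: 1 rose and 14 fell with median centring, 10 and 12 with quantile normalization, and 12 and 12 with cyclic loess. The matching shares of all tested genes were 10.3% up and 15.2% down, 13.8% and 16.1%, and 15.1% and 15.9%.

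MRPS6 had 165, 174 and 168 FPKM in the libraries titled sunitinib, against 213, 247 and 252 FPKM with DMSO, and fell by 0.48 ± 0.07 (SE) on the log2 scale, adjusted p = 0.0030. MRPL17 had 45.1, 46.1 and 45.4 FPKM, against 56.1, 64.9 and 67.3 FPKM with DMSO, and fell by 0.45 ± 0.07 (SE), adjusted p = 0.0034. For both genes the groups did not overlap.

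MRPL36, the counterpart of the smallest bacterial large-subunit protein, had 114, 116 and 116 FPKM in the libraries titled sunitinib, against 147, 160.1 and 164 FPKM with DMSO. It fell by 0.44 ± 0.06 (SE), adjusted p = 0.0030, without overlap of the libraries. The MRPL36 locus overlaps NDUFS6, which had log2 differences of −0.27 with the sunitinib title and −0.66 with the MI-389 title against DMSO. How far reads of NDUFS6 enter the level of MRPL36 was not tested. MRPL1 had 76.5, 73.0 and 76.6 FPKM in the libraries titled sunitinib, against 89.1, 93.4 and 95.4 FPKM with DMSO. All 3 libraries titled sunitinib lay below the DMSO libraries, and the log2 difference was −0.29 ± 0.05 (SE), adjusted p = 0.0059.

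MRPS26 fell by 0.36, MRPL18 by 0.32, MRPL14 by 0.30 and MRPL32 by 0.28 on the log2 scale (adjusted p between 0.0048 and 0.021). The MRPL18 call was lost without sunitinib replicate 2 (adjusted p = 0.052), and the MRPL32 call without any library of this comparison except DMSO replicate 1 (adjusted p between 0.053 and 0.085). MRPL51, which fell in the libraries titled MI-389, had 696, 708 and 687 FPKM in the libraries titled sunitinib, within the DMSO range of 627 to 782 FPKM; it did not pass (−0.04, adjusted p = 0.77) but passed downward without DMSO replicate 1 (adjusted p = 0.0092) and upward with cyclic loess (0.088, adjusted p = 0.024). MRPS30, at 48.4, 51.1 and 49.9 FPKM against 55.3, 56.2 and 59.7 FPKM with DMSO, passed downward (−0.19, adjusted p = 0.027), a call lost without DMSO replicate 2 or 3, without any sunitinib library or without MI-389 replicate 3 (adjusted p between 0.053 and 0.093). It was also lost with median centring (−0.11, adjusted p = 0.080), quantile normalization (−0.08, 0.14) and cyclic loess (−0.08, 0.18).

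The libraries titled MI-389 and titled sunitinib were also compared directly, at the unmatched doses of the labels. MRPL1 and MRPS30 were 1.82 and 1.72 times as high in the libraries titled MI-389, and MRPL51, MRPL34 and MRPL27 were 1.68, 1.67 and 1.44 times lower there. Of the 76 genes 19 were higher, 23 were lower and 34 did not pass, where 56.3% of all tested genes passed, 36.0% higher and 20.3% lower. The median was −0.05, against 0.08 over all tested genes. The all-gene median of this comparison was −0.08 after median centring, and then 9 mitoribosome genes were higher and 43 lower. With quantile normalization these were 23 and 34, and with cyclic loess 25 and 30. The matching shares of all tested genes were 26.7% higher and 39.5% lower, 30.8% and 36.0%, and 33.1% and 32.8%. The count of lower genes was 14 without MI-389 replicate 2 and 15 without sunitinib replicate 1 or 2. For 28 genes every library titled MI-389 was higher than every one titled sunitinib and for 34 lower, where 69.4% of all tested genes did not overlap, 42.5% higher and 27.0% lower.

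MRPL1 differed by 0.85 ± 0.05 (SE) on the log2 scale between the libraries titled MI-389 and titled sunitinib (adjusted p = 1.5e-06), MRPS30 by 0.77 ± 0.05 (2.3e-06), MRPS31 by 0.53 ± 0.06 (3.9e-05) and MRPS18B by 0.47 ± 0.07 (0.00041). In the other direction MRPL51 differed by −0.74 ± 0.08 (3.6e-05), MRPL34 by −0.73 ± 0.06 (8.7e-06), MRPL27 by −0.52 ± 0.08 (0.00030) and MRPL16 by −0.40 ± 0.07 (0.00069). ABHD8, which overlaps MRPL34, was also lower in the libraries titled MI-389 here (−0.36, adjusted p = 0.0015). For MRPL17 and MRPL14, which fell against DMSO in both sets of libraries, the direct differences were −0.05 (95% interval −0.20 to 0.10) and −0.03 (−0.13 to 0.08) and did not pass. This depended on scaling: MRPL17 passed as lower in the libraries titled MI-389 with median centring (−0.21, adjusted p = 0.0028), quantile normalization (−0.21, 0.00055) and cyclic loess (−0.16, 0.0035), and MRPL14 with median centring (−0.19, 0.0045).

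Set side by side over the 3 comparisons, which share libraries, MRPL1 and MRPS30 passed upward with the MI-389 title and downward with the sunitinib title, the second of these calls for MRPS30 being the one lost in the alternatives above. MRPL36 fell with both and was higher in the libraries titled MI-389 than in those titled sunitinib. MRPL15, MRPL18, MRPL20, MRPS26 and MRPS6 fell with both and were lower still in the libraries titled MI-389. The most frequent pattern among genes that passed somewhere held 18 genes, including MRPL34, MRPL51, MRPL27, MRPL16 and MRPS21. These were lower in the libraries titled MI-389 than in both other groups, and did not pass with the sunitinib title against DMSO. Another 20 genes did not pass in any comparison. Taken singly, 28.3% of all tested genes fell with MI-389 against DMSO and 20.3% were lower with MI-389 than with sunitinib. The share of all tested genes with each joint pattern was not counted.

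Proteins of the mitoribosome that carry other symbols were measured for 7 genes. In the libraries titled MI-389 against DMSO, GADD45GIP1, ICT1 and MRP63 of the large subunit and AURKAIP1 and CHCHD1 of the small subunit passed, and DAP3 and PTCD3 of the small subunit did not. GADD45GIP1 had 216, 213 and 221 FPKM in the libraries titled MI-389, against 305, 393 and 379.7 FPKM with DMSO, a log2 difference of −0.72 ± 0.09 (SE), adjusted p = 1.0e-04. MRP63 fell by 0.46, CHCHD1 by 0.29 and AURKAIP1 by 0.22 on the log2 scale, the last a call lost without DMSO replicate 2 or 3 or MI-389 replicate 2 or 3 (adjusted p between 0.071 and 0.11). ICT1, a large-subunit protein able to release stalled peptides, was the exception: it had 161, 150.0 and 159.9 FPKM in the libraries titled MI-389, against 112, 135 and 139 FPKM with DMSO, and rose by 0.29 ± 0.08 (SE), adjusted p = 0.011. Of the 7 genes 1 passed in the libraries titled sunitinib, GADD45GIP1 (−0.31, adjusted p = 0.038), a call lost without any library of the series except DMSO replicate 1 (adjusted p between 0.055 and 0.11).

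Of 21 genes for mitoribosome assembly and rRNA modification, 10 rose and 2 fell in the libraries titled MI-389 against DMSO (median log2 difference 0.05), where 28.5% of all tested genes rose and 28.3% fell. The falls numbered 7 with median centring, which turned the median to −0.03, 6 with quantile normalization or cyclic loess, 5 without DMSO replicate 1, and 4 without DMSO replicate 2 or with robust variance. GTPBP10, a GTPase of large-subunit assembly, had 29.6, 28.2 and 29.2 FPKM in the libraries titled MI-389, against 14.9, 13.1 and 15.3 FPKM with DMSO, and rose by 0.96 ± 0.08 (SE), adjusted p = 8.1e-06. MRM1, which methylates the large ribosomal RNA, had 47.6, 47.4 and 46.4 FPKM, against 26.1, 27.5 and 29.2 FPKM with DMSO, and rose by 0.75 ± 0.05 (SE), adjusted p = 3.2e-06. NSUN4, an rRNA methyltransferase that also acts in joining the subunits, rose by 0.62 ± 0.06 (SE), adjusted p = 2.3e-05. For these 3 genes the libraries titled MI-389 and the DMSO libraries did not overlap.

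Of 15 mitochondrial translation factors 5 rose and 4 fell (median 0.07). TACO1, which activates translation of a cytochrome oxidase subunit, rose by 0.61 ± 0.05 (SE), adjusted p = 9.1e-06, and MTRF1L, a release factor, by 0.54 ± 0.07 (SE), adjusted p = 0.00017. SLIRP, which binds and stabilizes mitochondrial mRNAs, fell by 0.55 ± 0.07 (SE), adjusted p = 0.00019. Over the 53 genes of translation factors, assembly, mitochondrial DNA transcription and replication and the 7 proteins above, 18 rose and 13 fell in the libraries titled MI-389, beside the same shares of 28.5% and 28.3% of all tested genes. In the libraries titled sunitinib 0 rose and 10 fell by limma, where 2.37% of all tested genes rose and 16.9% fell. At an unadjusted p under 0.05, 0 rose in any of these lists, beside 635 of all 12301 genes. Among those that fell was MRM1 (−0.31, adjusted p = 0.0055). Between the libraries titled MI-389 and titled sunitinib, 21 of the 53 were higher and 8 lower, where 36.0% of all tested genes were higher and 20.3% lower. The 21 were led by MRM1 (1.06 ± 0.05, SE, adjusted p = 4.3e-07) and GTPBP10 (1.03 ± 0.08, SE, adjusted p = 5.2e-06). The count of 10 with sunitinib was 23 without DMSO replicate 1, where 32.2% of all tested genes fell, and 5 at the lowest with another library left out.

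Of 11 tested regulators of nuclear genes for mitochondria, 2 rose (MYC and NRF1) and 4 fell in the libraries titled MI-389 against DMSO. The falls included ESRRA and PPARGC1B. Of all tested genes 28.5% rose and 28.3% fell. In the libraries titled sunitinib 0 of the 11 rose and 6 fell, where 2.37% of all tested genes rose and 16.9% fell. MYC, a growth-promoting transcription factor, had 442, 417 and 435 FPKM in the libraries titled MI-389, 238, 237 and 234 FPKM in those titled sunitinib, and 299.7, 340.2 and 352 FPKM with DMSO. The 3 groups did not overlap: MYC was higher than DMSO with the MI-389 title (0.39 ± 0.06, SE, adjusted p = 0.00067) and lower with the sunitinib title (−0.48 ± 0.06, SE, adjusted p = 0.0027). NRF1 differed by 0.21 (adjusted p = 0.029) with the MI-389 title, a call lost without DMSO replicate 1 or 2 or any MI-389 library (adjusted p between 0.058 and 0.10). TFAM, which packages mitochondrial DNA, did not pass with the MI-389 title (−0.09, adjusted p = 0.21) and fell with the sunitinib title (−0.31, adjusted p = 0.0071); with the MI-389 title it passed downward with median centring (adjusted p = 0.0033) and quantile normalization (0.018). GABPA, an ETS-family factor, did not pass with the MI-389 title (−0.09, adjusted p = 0.19) and passed downward with the sunitinib title (−0.22, adjusted p = 0.019), a call lost without sunitinib replicate 2 or 3 (0.082 and 0.068). With the MI-389 title GABPA passed downward with median centring (adjusted p = 0.0034), quantile normalization (0.0050) and cyclic loess (0.016). Whether these levels bear on the mitoribosome genes was not tested.

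The mitoribosome genes were set beside the most similar groups, 78 tested cytosolic ribosomal protein genes and 80 tested genes with symbols of the nuclear-encoded respiratory chain and ATP synthase. The mitoribosome makes partner subunits for many of the latter, but not for SDHA, SDHB, SDHC and SDHD. Both groups were taken by symbol pattern, and not every row encodes a subunit. ATP5EP2 and UQCRBP1 (0.27 and 0.063 with MI-389 against DMSO) carry pseudogene names. In the libraries titled MI-389 against DMSO, 0 of the 78 cytosolic genes and 1 of the 80 respiratory chain genes rose and 57 and 65 fell. Their medians were −0.28 and −0.37, against 10 rises and 36 falls with a median of −0.15 among the 76. Of all tested genes 28.5% rose and 28.3% fell. For the cytosolic genes limma found 0 upward and 66 downward at an unadjusted p under 0.05, beside 3795 and 3778 of all 12301 genes. The count of 57 falls was 77 without DMSO replicate 1, 28 without DMSO replicate 2 or 3, 29 without MI-389 replicate 2, 34 without MI-389 replicate 1, 27 with only the 6 libraries compared and 18 without a filter. The log2 differences spread more widely among mitoribosome genes than among cytosolic ribosomal protein genes, with an SD over genes of 0.29 against 0.13. This SD was 0.24 for the respiratory chain group and 0.57 for all tested genes. The direction of the cytosolic group flipped with scaling: 22 rose and 17 fell with quantile normalization, and 56 rose and 9 fell with cyclic loess. The respiratory chain group kept more falls than rises, 7 up and 52 down with quantile normalization and 12 up and 43 down with cyclic loess. Differences between the groups were not tested.

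**Figure D5:**
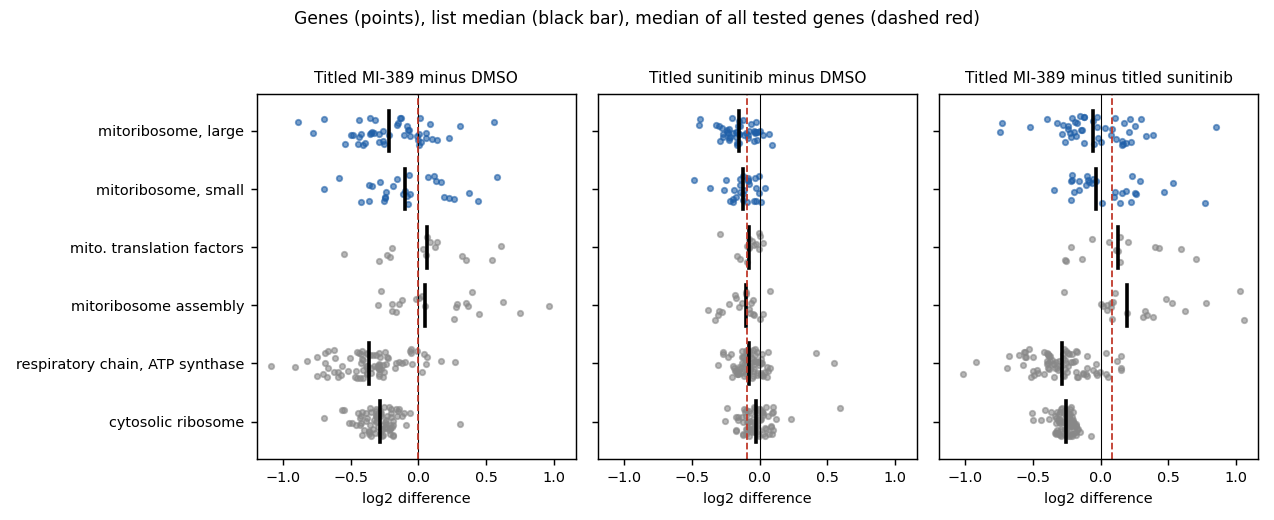
Log2 difference (horizontal axis) of each gene in 6 groups for the 3 comparisons; points are genes, black bars group medians and the dashed red line the median of all tested genes, with mitoribosome genes in blue. In the left panel the large-subunit names have a median of −0.22 and the small-subunit names −0.10, with points on both sides of 0, while the respiratory chain and cytosolic ribosome groups have medians of −0.37 and −0.28.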

How the data were processed

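RNA of 9 libraries of MOLT4 cells, 3 per group, was measured as polyadenylated RNA. Per the submitters' processing notes, HISAT and Cufflinks 2.0.0 were used with build hg19; for the annotation, settings and normalization the sources used here give nothing. The deposited values are FPKM per gene as made by the authors, with 92 ERCC rows left out of the tests. Nothing states whether spike-ins were used for scaling. In the deposited values the libraries were nearly level on the spike-ins. Over 16 spike-ins with a mean of at least 10 FPKM, the median log2 difference from the DMSO mean ran from −0.038 to 0.026 between libraries. Counts were not given, so the precision of single values cannot be derived from depth.

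From these, log2(FPKM + 1) was fitted with limma 3.58.1 (R 4.3.3; variance trend, all 9 libraries, groups by title, two-sided) for the 12301 of 23621 genes averaging 1 FPKM or more, and p-values were adjusted by Benjamini-Hochberg over all of them. The pseudocount of 1 shrinks the log2 differences of low genes. In simulated data of this design with 100 genes changed by 1 log2 unit and 100 by 0.5, the fit recovered 94 and 63 for MI-389 against DMSO, 96 and 80 for sunitinib against DMSO, and 94 and 73 for MI-389 against sunitinib, over 12301 genes. Of the genes called there, 4.27%, 4.35% and 2.34% were unchanged ones. All other genes were simulated without change, with noise independent between genes. In the data 56.7% of tested genes passed for MI-389 against DMSO, so these rates need not hold there.

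The genes, lists and classes were chosen with earlier results of these data known. Named with values were up to 8 largest rises and falls per comparison among genes that passed with at least 5 FPKM in the higher group, the 4 highest and 4 lowest levels, the stalk, the MRPS18 paralogs, MRPS30, MRPS36, mitoribosome proteins under other symbols, up to 3 genes of smallest adjusted p per other mitochondrial list, and TFAM, NRF1, GABPA and MYC; a selection is printed. Transcript length and GC content came from GENCODE 29 and promoters from RefSeq (GRCh38.p14). Other pseudocounts, filters, scalings, variance models, library sets, the source-field names and leaving out each library were tried.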

Additional observations from a re-analysis of the deposited data

How the results depend on the processing

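Counts here are given as genes higher and genes lower. The direction of the median of the 76 genes held in every alternative for both comparisons with DMSO; with MI-389 that of the MRPS names turned to 0.0069 with cyclic loess and that of the cytosolic ribosomal protein genes to 0.019 with quantile normalization and 0.128 with cyclic loess; the named alternatives are those in which a count moved by over 1.5 times, a median by more than the spread between replicates, or a direction turned. Pseudocounts of 0.1 and 5, a mean of at least 5 FPKM, spike-in rescaling and the fit without a variance trend moved no such count. The cause of these shifts was not tested, beyond the fewer libraries or genes of some fits. Depth is unknown, and 3 libraries per group limit every test.

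With quantile normalization 22 of the 76 genes were higher with MI-389 against DMSO (MRPL 12, bacterial homologues 11, mitochondria-specific 9; median −0.096). With sunitinib 10 were higher (MRPL 5, MRPS 5, bacterial 6, mitochondria-specific 4, other translation genes 4; median −0.017) and 1 mitochondria-specific gene was lower. Between the titles 11 MRPS, 10 mitochondria-specific and 15 other translation genes were lower. With cyclic loess 26 were higher with MI-389 (MRPL 15, MRPS 11, bacterial 12, mitochondria-specific 12; median −0.038) and 12 with sunitinib (MRPL 7, MRPS 5, bacterial 6, mitochondria-specific 6, other translation genes 4; median −0.010), 1 mitochondria-specific gene was lower with sunitinib, and 10 were lower between the titles.

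With median centring the medians were −0.23 with MI-389, −0.060 with sunitinib and −0.22 between the titles. With MI-389 19 MRPS, 16 mitochondria-specific and 22 other translation genes were lower, and with sunitinib 1 gene was higher, an MRPL name and mitochondria-specific. Between the titles 9 genes were higher and 43 lower (MRPL 5 and 28, MRPS 4 and 15, bacterial 4 and 29, mitochondria-specific 4 and 13), and 16 other translation genes were lower.

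With only the 6 libraries compared, 9 genes were lower with sunitinib (MRPL 6, bacterial 8, mitochondria-specific 1, other translation genes 5), 2 bacterial homologues were higher with MI-389, and between the titles 15 bacterial homologues were higher and 9 mitochondria-specific genes lower. Robust variance gave 7 MRPS and 4 mitochondria-specific genes lower with sunitinib. Without a filter 1 mitochondria-specific and 5 other translation genes were lower with sunitinib. Deviations of same-numbered libraries of different groups correlated at −0.042 to 0.112 over 9 pairs, and those of other pairs at −0.216 to 0.134 over 18. These weak, overlapping ranges cannot settle whether the numbers pair libraries. With the replicate number as a block, 9 genes rose and 34 fell with MI-389, 0 and 12 with sunitinib, and 16 were higher and 19 lower between the titles, with 1 mitochondria-specific gene lower with sunitinib.

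With compounds named from the source field, MI-389 against DMSO gave 0 and 16 (MRPL 0 and 12, MRPS 0 and 4, bacterial 0 and 13, mitochondria-specific 0 and 2, other translation genes 0 higher) and sunitinib 10 and 36 (MRPL 3 and 24, MRPS 7 and 12, bacterial 4 and 28, mitochondria-specific 5 and 8, other translation genes 18 higher). MI-389 against sunitinib then had a median of 0.053, with bacterial 18 and 9, mitochondria-specific 5 and 8, and other translation genes 8 and 21.

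Leaving out 1 library at a time gave, with MI-389 against DMSO, 8 to 11 genes higher and 31 to 45 lower, medians from −0.23 to −0.100, MRPL 3 and 22 to 30, MRPS 5 to 8 and 9 to 15, bacterial 2 to 4 and 24 to 31, mitochondria-specific 5 to 6 and 7 to 14, and other translation genes 16 to 19 and 10 to 19. With sunitinib it gave 0 higher and 7 to 46 lower, medians from −0.20 to −0.094, and lower counts of MRPL 4 to 29, MRPS 3 to 17, bacterial 6 to 31, mitochondria-specific 1 to 13 and other translation genes 5 to 23. Between the titles it gave 13 to 25 higher and 14 to 31 lower, medians from −0.064 to −0.037, MRPL 6 to 15 and 10 to 21, MRPS 7 to 11 and 2 to 10, bacterial 6 to 14 and 11 to 22, mitochondria-specific 6 to 9 and 3 to 9, and other translation genes 18 to 24 and 6 to 11.

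Of the values recomputed for single named genes, 1572 kept their direction and side of the threshold, 71 lost a call, 15 gained it and 22 turned direction. Against DMSO with the MI-389 title, MRPL12 was at 0.11 with quantile normalization and 0.16 with cyclic loess, MRPL50 at 0.064 and 0.10, and DAP3 at 0.12 and 0.18. With spike-in rescaling MRPL50 was at 0.0014 and DAP3 at 0.00697; with median centring PTCD3 was at −0.029, and with cyclic loess AURKAIP1 at 0.024. With the sunitinib title MRPL51 was at 0.049 with median centring, 0.055 with quantile normalization and 0.088 with cyclic loess. Between the titles MRPL14 was at 0.0054 with quantile normalization and 0.061 with cyclic loess. With 1 library left out MRPL50 ran from −0.042 to 0.054, DAP3 from −0.072 to 0.073 and ABHD8 from −0.092 to 0.027 with the MI-389 title, and MRPL51 from −0.13 to 0.027 with the sunitinib title.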

Other observations

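Several mitoribosome genes share a start region with a gene read in the opposite direction, and the neighbours, chosen here after their values were seen, did not always move alike. Among the promoters of RefSeq, 23 of the 76 genes have such a neighbour with starts within 1000 bases, and 22 pairs, with MRPL46 and MRPS11 counted from both sides, could be tested in the libraries titled MI-389 against DMSO. In 1 pair both genes rose, in 2 both fell, in 2 they passed in opposite directions, and in the other pairs at most 1 gene passed. Taken singly, 28.5% of all tested genes rose and 28.3% fell. Whether neighbours moved alike more often than other genes was not tested. MRPL18 and its neighbour TCP1, a subunit of the cytosolic chaperonin, had log2 differences of −0.54 and −0.53, with starts 210 bases apart. MRPL51 and NCAPD2, a condensin subunit, had −0.78 and −0.51, with starts 840 bases apart. MRPS18C and the helicase gene HELQ had 0.27 and 1.08, with starts 175 bases apart.

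MRPS27 fell by 0.25 while PTCD2, whose start lies 133 bases away, rose by 0.87, with a mean of 27.5 FPKM in the libraries titled MI-389 and 14.6 FPKM with DMSO. MRPS12 fell by 0.28 while SARS2, the mitochondrial seryl-tRNA synthetase gene, had a log2 difference of 0.22 (adjusted p = 0.022), a call lost without DMSO replicate 1 or 2 or MI-389 replicate 2 or 3 (adjusted p between 0.057 and 0.066). MRPL50 did not pass (−0.01, adjusted p = 0.94), while ZNF189, 233 bases away, rose by 0.80 (adjusted p = 2.7e-05). Among the 76 genes, 28 overlap another annotated gene and 41 have a named pseudogene, so that FPKM may mix sources for them; how far it does was not tested.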
